A study of Bos taurus with 6 samples.

Results

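The miR-34 and miR-449 family was followed in extracellular vesicles (EVs) of bovine oviductal organoids. Its 7 members were taken by name from the deposited table: bta-miR-34a, bta-miR-34b, bta-miR-34c, bta-miR-449a, bta-miR-449b, bta-miR-449c and bta-miR-449d. They are 7 of the 1028 mature bovine miRNAs in that table, and 5 of the 7 had a read in at least 1 library, as did 341 of the 1028. Small RNA was sequenced from 3 EV libraries of organoids held at 37 °C throughout (N-EVs) and from 3 libraries of organoids moved to 42 °C for the final day (S-EVs, heat stress or HS). All cultures were grown from epithelial cells scraped from diestrus oviducts of slaughtered Bos taurus cows, were passaged once in a matrix gel at 37 °C and were then placed in a synthetic gel, with material of 2 animals pooled in every library. No gene was altered in either group, and the same oviducts were represented at both temperatures, although the labels do not tie libraries to animals. The libraries are named by temperature and replicate letter.

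miRNAs are short RNAs that repress messenger RNAs through pairing with bases near their 5′ end, and members of a family share that stretch, the seed. miR-34b, miR-34c, miR-449a, miR-449b and miR-449c are known for their abundance in multiciliated epithelium, such as that of the airway and the oviduct. There, in vertebrates, they repress CP110, a cap protein of centrioles, and components of Notch signalling. Mice that lack both the miR-34b/c and the miR-449 cluster form few motile cilia and are infertile. miR-34a is found in many tissues, and p53 is known to induce it as well as miR-34b and miR-34c. A miRNA in EVs is a measure of what was released and captured, not of its level in the cells.

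In the RefSeq annotation of the bovine assembly ARS-UCD2.0, all 7 members were matched to a gene entry, and they occupy 4 separate places. MIR34B and MIR34C are neighbouring entries within the spans of BTG4, a regulator of messenger RNA decay in oocytes, and HOATZ, a gene of motile cilia and flagella. MIR449A, MIR449B and MIR449C are consecutive entries within CDC20B, the host gene that multiciliated cells express. MIR34A lies apart from both clusters, within the span of GPR157. MIR449D shares a chromosome with none of the other members and lies within NAV2, so its name does not place it in the CDC20B cluster.

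The deposited values are CPM, reads per 1000000 reads, adjusted by TMM, a scaling that brings most miRNAs of the libraries to a common level. Every value above 0 was a whole multiple of the smallest one in its library, so the reads behind them were recovered. The 6 libraries held 31640 to 213877 miRNA reads, 712175 in all, and a single read was worth 5.53 CPM in the deepest (replicate B, 42 °C) and 28.7 CPM in replicate C at the same temperature. miR-1246 took from 25.0% of the reads in replicate A at 37 °C to 71.8% in replicate C at 42 °C. Replicate B at 42 °C stood apart by the erythroid miRNAs miR-451 and miR-486, with 28903 and 2598 reads. With miR-144, which had only 2 reads there, the erythroid list summed to 174301 CPM in that library and to 13912 to 47558 CPM in the other 5. The liver miRNA miR-122 stood at 96614 CPM in the same library and at 8926 to 25393 CPM elsewhere. Intervals below are at 95% and, where they rest on reads, cover counting error only.

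The family in these EVs was almost entirely miR-34c. Of 131 reads for the 7 members, 114 were miR-34c, 8 were miR-34a, 6 were miR-34b, 2 were miR-449d, 1 was miR-449a, and none was miR-449b or miR-449c. miR-34c was the only member with reads in all 6 libraries. Its share of the members' reads was 85.9% over the N-EVs (Wilson interval 76.9 to 91.7%) and 89.1% over the S-EVs (77.0 to 95.3%), a composition that does not depend on how libraries are scaled. By library the share ran from 77.8% in replicate C at 42 °C, with 7 of 9 reads, to 100% in both A replicates, with 6 of 6 and 19 of 19 reads. The means of the library shares were in the opposite order to the pooled shares, 89.6 ± 9.07% in N-EVs and 87.0 ± 11.6% in S-EVs (SD, n = 3).

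**Figure D1:**
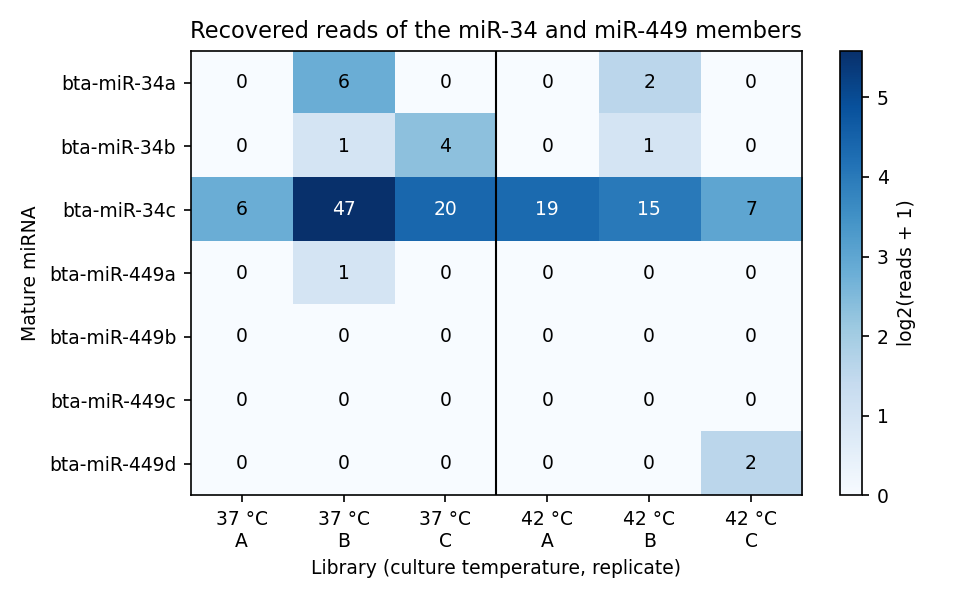
Recovered reads of each of the 7 members (rows) in each of the 6 EV libraries (columns, by culture temperature in °C and replicate letter), with the read number in each cell and the shading on a log2(reads + 1) scale. miR-34c is the only row filled in all 6 libraries, with 6 to 47 reads, while miR-449b and miR-449c stay at 0.

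For miR-34c, from the cluster shared with miR-34b, the N-EV libraries A, B and C gave 6, 47 and 20 reads, and the S-EV libraries 19, 15 and 7. In deposited CPM it stood at 102, 276 and 148 at 37 °C and at 151, 83.0 and 201 at 42 °C. Replicate B supplied both the highest value, at 37 °C, and the lowest, at 42 °C, and the other 4 values lay between them. The counting intervals of these 2 libraries, 203 to 367 CPM at 37 °C and 46.5 to 137 CPM at 42 °C, did not overlap, whereas those of the A replicates (37.4 to 222 and 90.9 to 236 CPM) and of the C replicates (90.3 to 228 and 80.8 to 414 CPM) did. The letters were not taken as pairs, and the 2 B libraries are the extremes, picked after the values were seen. The low replicate B at 42 °C is the library with the high erythroid and liver miRNAs, whose part in its miR-34c value was not tested.

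Between temperatures, miR-34c did not differ beyond the spread of the libraries. Its mean was 175 ± 90.2 CPM (SD, n = 3) in N-EVs and 145 ± 59.2 CPM (SD, n = 3) in S-EVs, and the groups overlapped. On the log2(CPM + 10) scale limma put S-EVs against N-EVs at -0.23, with a standard error of 0.64 and an adjusted p of 0.89. The 95% interval of that change, from -1.61 to 1.16, runs from 3.05-fold lower to 2.23-fold higher in S-EVs, so that changes inside these limits could not be told from none. Without replicate B at 37 °C the log2 fold change was 0.14, and without replicate B at 42 °C it was 0.10, so the sign rested on each of these 2 libraries. Pooled reads gave another ratio, 0.60 (exact interval 0.40 to 0.89), since pooling gives replicate B at 37 °C, with 47 of the 73 reads, the most weight, and this interval leaves out the spread between libraries.

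**Figure D2:**
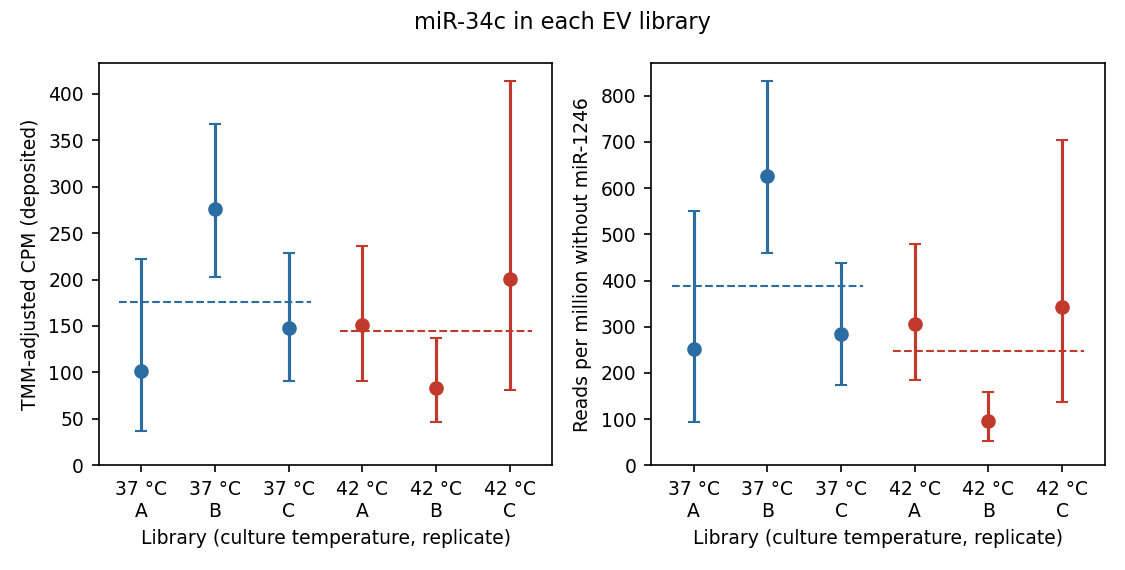
miR-34c in the 6 EV libraries (x axis, culture temperature in °C and replicate letter; blue 37 °C, red 42 °C) as deposited TMM-adjusted CPM (left) and as reads per 1000000 with miR-1246 left out of the library sums (right). Points are single libraries, bars are exact 95% Poisson intervals of the read number, and dashed lines are group means, 175 and 145 CPM on the left and 387 and 248 reads per 1000000 on the right.

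The size of the difference depended on the scale. With miR-1246 left out of the library sums, miR-34c stood at 253, 626 and 283 reads per 1000000 in N-EVs and at 306, 95.7 and 342 in S-EVs, with means of 387 ± 207 and 248 ± 133 (SD, n = 3). In a fit on values scaled in that way the log2 fold change was -0.69 (adjusted p = 0.63, limma), and on plain CPM, with miR-1246 in the sum and no TMM factor, it was -0.86 (adjusted p = 0.62, limma). The median of all miRNAs tested moved with the scale from -0.01 to -0.46 and -0.54. Relative to these medians, the log2 change of miR-34c was -0.21 as deposited, -0.22 without miR-1246 and -0.32 with it.

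**Figure D3:**
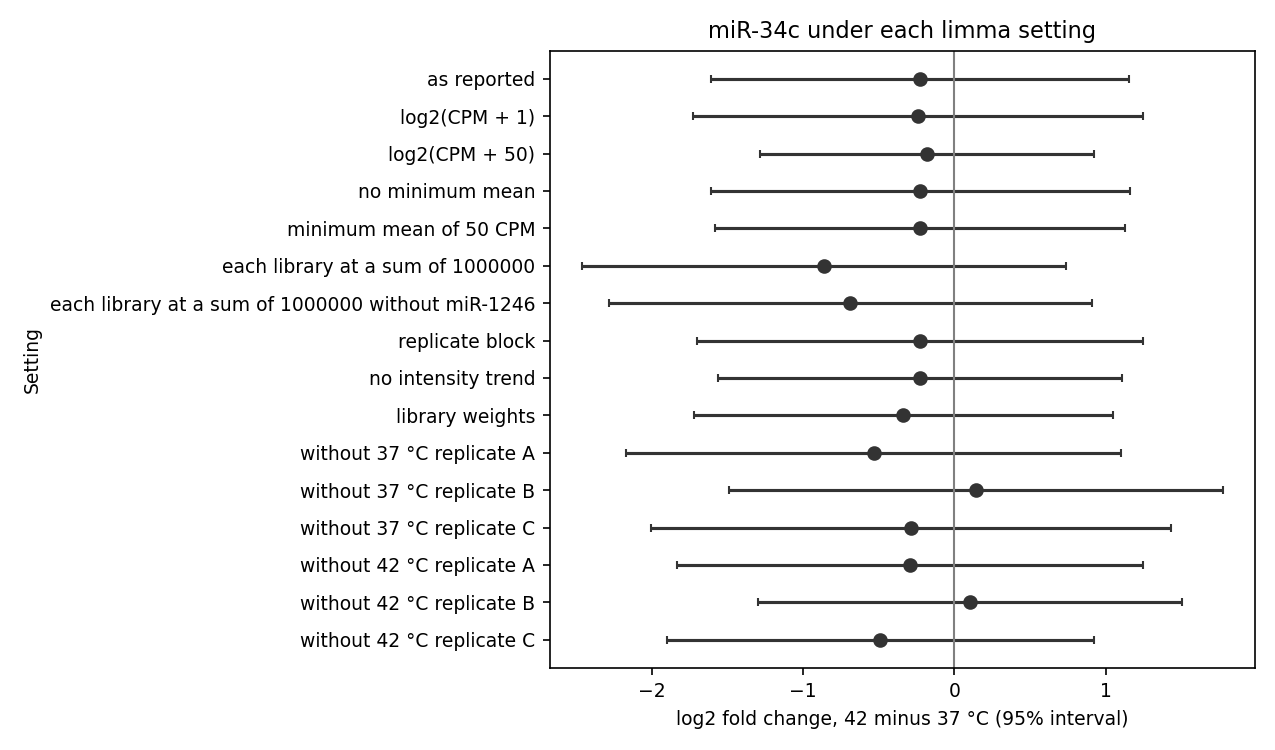
log2 fold change of miR-34c, 42 °C minus 37 °C (x axis), in each limma fit (y axis), with points for estimates and bars for 95% intervals. Every interval includes 0, and the estimates run from -0.86 on plain CPM, with all libraries at the same sum, to 0.14 without replicate B at 37 °C.

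By abundance miR-34c lay in the middle of the EV profile. It ranked 106 by mean CPM in N-EVs and 111 in S-EVs, and within single libraries it ranked from 93 of 256 miRNAs with reads in replicate B at 37 °C to 127 of 225 in replicate B at 42 °C. Its standard deviation within groups, 0.64 on the log2(CPM + 10) scale, was at the percentile 30.7 of the 251 miRNAs tested. The median for 44 miRNAs within 2-fold of its mean was 0.80. The deviation of miR-34c was thus not above that of most miRNAs at its level.

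miR-34b, which is cut from the same cluster as miR-34c, was nearly missing beside it. Libraries A, B and C gave 0, 1 and 4 reads in N-EVs and 0, 1 and 0 in S-EVs, that is up to 29.6 CPM, in replicate C at 37 °C. Over all libraries miR-34c had 19.0 reads for each miR-34b read (exact interval 8.46 to 52.9). At that ratio, from 0.32 to 2.47 reads of miR-34b would fall in each library, so a 0 in any of the 3 libraries without a read is within what the depth gives. The mature sequences of this pair are alike, and how reads that matched both were assigned is not given in the sources used here, so the split between them is uncertain. The limma estimate for miR-34b was -0.67 on the log2 scale with a standard error of 0.72 (adjusted p = 0.66), with means of 11.8 ± 15.6 and 1.84 ± 3.19 CPM (SD, n = 3) in N-EVs and S-EVs. The pooled ratio of 42 °C to 37 °C was 0.21, from 1 read against 5, with an exact interval from 0.0045 to 1.91.

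miR-34a, which is encoded apart from both clusters, was found in the 2 libraries lettered B alone. Its reads in libraries A, B and C were 0, 6 and 0 in N-EVs and 0, 2 and 0 in S-EVs, which is 35.2 CPM in replicate B at 37 °C and 11.1 CPM in replicate B at 42 °C. These are also the 2 deepest libraries, and 3 reads, the limit that a count of 0 allows, come to 51.0 CPM in replicate A and 22.2 CPM in replicate C at 37 °C. At 42 °C they come to 23.8 CPM in replicate A and 86.2 CPM in replicate C. Only the value of replicate B at 37 °C lay above the limit of any library without a read, those of replicate C at 37 °C and replicate A at 42 °C. In limma its log2 fold change came to -0.37 with a standard error of 0.78 (adjusted p = 0.84), and the pooled ratio was 0.36 (exact interval 0.035 to 1.99). For each miR-34a read there were 14.2 miR-34c reads over all libraries (exact interval 6.99 to 33.8).

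The CDC20B cluster, miR-449a, miR-449b and miR-449c, was at the limit of detection. Its 3 members together had 1 read of 712175, a miR-449a read in replicate B at 37 °C. That is 1.40 reads per 1000000, with a Wilson interval from 0.25 to 7.95, against 168 reads per 1000000 for miR-34b and miR-34c together (141 to 201). miR-449b and miR-449c had 0 reads of 712175, which allows up to 5.39 reads per 1000000 each by the Wilson interval and 4.21 by the limit of 3 reads. In single libraries the limit of 3 reads lay between 16.6 and 86.2 CPM, the extremes being the B and C libraries of the S-EVs. At this depth a level of the miR-449 cluster below these limits could leave a library without a read, and a difference between temperatures could not be measured. Fewer vesicles from ciliated cells and less of the miRNA in each cannot be told apart in such bulk libraries.

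miR-449d, which lies in NAV2, had 2 reads, both in replicate C at 42 °C. Since 1 read is worth most in that library, these 2 reads stand as 57.4 CPM and gave miR-449d a mean of 19.1 CPM in S-EVs, enough to pass the minimum mean of 10 CPM. The limma test of miR-449d, with an adjusted p of 0.63, rests on them alone. No fold is given, since both groups are at or under 3 reads.

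Of the 7 members, 4 reached a mean of at least 10 CPM in 1 group at least, namely miR-34a, miR-34b, miR-34c and miR-449d. With calls set at 2-fold or more and an adjusted p below 0.05, limma called 0 of the 4 and 6 of the 251 miRNAs tested (2.39%), of which 1.59% were higher and 0.797% lower in S-EVs. At an unadjusted p under 0.05 there were also 0 of 4, against 44 of 251 (17.5%). edgeR on the recovered reads called 0 of 4 (5.18% of all 251) and DESeq2 called 0 of 4 (7.17%), where DESeq2 gave 3 of the 4 no adjusted p. The libraries of the groups did not separate for any of the 4, against 24.3% of the 251. Of the 4, miR-34a and miR-34b passed the minimum through N-EVs alone and miR-449d through S-EVs alone, so their signs were set by the filter and are not counted. Each of these 3 had libraries without a read at both temperatures, so its groups could not separate. With 8, 6 and 2 reads in all, a call was hardly possible for them, and 0 of 4 says little beyond miR-34c. Summed over the 7 members, the level was 102, 323 and 177 CPM in N-EVs and 151, 99.6 and 258 CPM in S-EVs, with means of 201 ± 112 and 170 ± 81.1 (SD, n = 3).

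Epithelial miRNAs gave a measure of the family within each library that no scaling touches. Of 12 miRNAs listed as typical of epithelium, 11 were in the table and tested, and none passed the test between temperatures (median log2 fold change 0.19, 3 of 11 below 0). Their reads summed to 14507 to 22176 CPM in N-EVs and 15135 to 29632 CPM in S-EVs, so an epithelial signal was present in all 6 libraries. For 1000 such reads there were 7.03, 12.5 and 8.38 of miR-34c in the N-EV libraries A, B and C, against 5.10, 5.41 and 13.3 in the S-EV libraries. The means, 9.29 ± 2.82 and 7.93 ± 4.64 (SD, n = 3), gave p = 0.6 in a two-sided exact permutation test, whose smallest p with 3 against 3 is 0.1. On this measure replicate C at 42 °C was the highest of all 6 libraries, and the groups overlapped.

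Among the single epithelial miRNAs, miR-200b, miR-200c and miR-200a, which keep epithelial cells from turning mesenchymal, lay above miR-34c in all 6 libraries. The other members of that family were closer to it, miR-429 being above miR-34c in 5 libraries (0.60 to 3.27 reads per miR-34c read) and miR-141 in 3 (0.14 to 2.42). miR-200b had from 36.0 to 57.3 reads per miR-34c read at 37 °C and from 40.7 to 84.3 at 42 °C. miR-182 and miR-183, abundant in sensory and other ciliated epithelia, were above miR-34c in all 6 libraries too, with 3.14 to 12.1 and 2.19 to 13.6 reads per miR-34c read. miR-96 of the same cluster was above it in 1 library and miR-205, of stratified and basal epithelium, in 0.

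**Figure D4:**
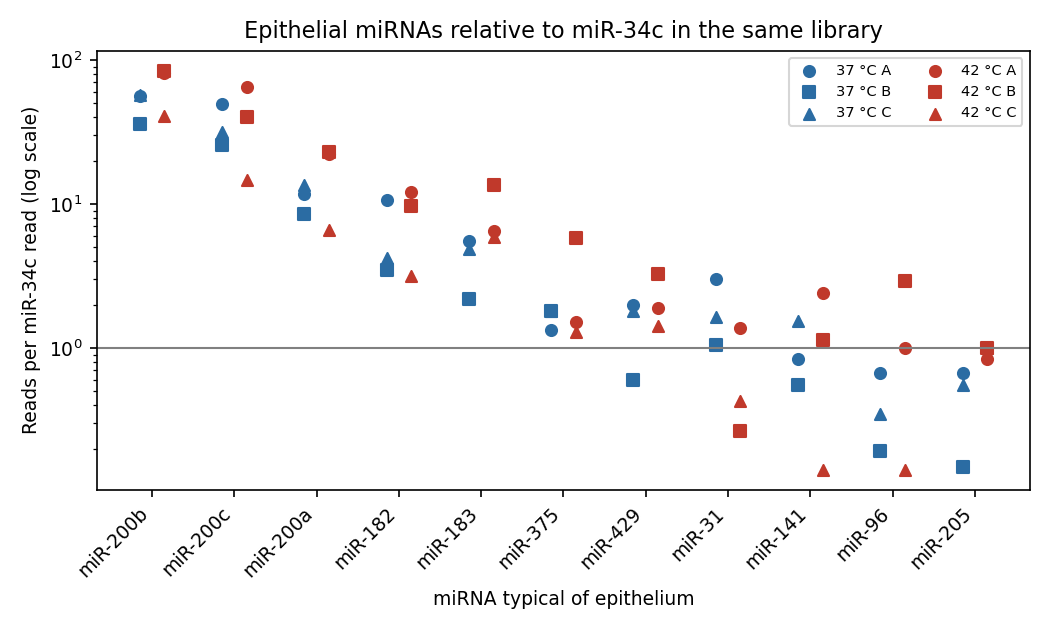
Reads of 11 epithelial miRNAs per read of miR-34c in the same library (y axis, log scale, with a line at 1), with 1 point per library (blue 37 °C, red 42 °C; circle A, square B, triangle C). miR-200b lies at 36.0 to 84.3 in all 6 libraries, and the temperatures overlap for 9 of the 11 miRNAs, the exceptions being miR-183 and miR-205. In CPM, miR-183, miR-205 and miR-429 stood apart as higher at 42 °C and miR-31 as lower. The temperatures stood apart in CPM for 24.3% of all 251 miRNAs tested, a share that was not counted for ratios to miR-34c.

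The miRNAs whose levels followed miR-34c most closely across the 6 libraries were miR-452, miR-210, miR-24-3p, miR-6529a and miR-23b-3p. They were the 5 highest of the 128 miRNAs whose mean reached 50 CPM in both groups, by Pearson correlation of log2(CPM + 10). The coefficients were 0.84, 0.83, 0.73, 0.67 and 0.66, and the median over the 128 was 0.01. Without replicate B at 37 °C the coefficients of these 5 were, in the same order, 0.91, 0.82, 0.63, 0.71 and 0.47. miR-210, the miRNA induced by hypoxia, stood at 170, 258 and 133 CPM at 37 °C and at 223, 77.5 and 258 CPM at 42 °C. Like miR-34c it was lowest in replicate B at 42 °C and highest in replicate B at 37 °C, with replicate C at 42 °C close behind. miR-452 had the same low library, at 22.1 CPM, and 34.0 to 87.4 CPM in the others. Replicate B at 42 °C is also the library with the highest erythroid sum, and the points share the same scaling factors, so these coefficients describe 6 libraries and carry no test. miR-200b, the leading epithelial miRNA, came at place 7 with a coefficient of 0.61.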

How the data were processed

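EV small RNA libraries (TruSeq kit, single-end reads) were made from 3 pools at each temperature. The authors trimmed the reads, counted them against bovine miRBase entries in CLC Genomics Workbench at its default settings and normalized them by TMM. The deposited table holds the resulting signal, which the authors call TMM-adjusted CPM, 1 column per library and no pooled column. The submitters' processing notes also name bcl2fastq, Bowtie2 2.2.2, DESeq2 and the build ARS-UCD1.2, without roles. Dividing a column by its lowest nonzero value gave whole numbers, within 0.01, for 100% of nonzero entries, and these were taken as reads.

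limma 3.58.1 (R 4.3.3) was run unpaired on log2(CPM + 10), which understates changes of low miRNAs, with an intensity trend. The 251 miRNAs whose mean reached 10 CPM in either group were tested, with adjustment by Benjamini-Hochberg over all of them. The study's thresholds (adjusted p under 0.05, at least 2-fold) were kept. Its negative binomial model needs counts, so recovered reads were tested, at the deposited scaling, with edgeR 4.0.16 and DESeq2 1.42.0. limma and edgeR, but not DESeq2, were also run on simulated reads with the same dispersion for all miRNAs, and the outcome is not given here. p-values measure the spread between pools. Alternatives covered pseudocount, filter, scaling, block, variance model, weights, test and each library left out. edgeR with recomputed TMM and DESeq2 with its own size factors were added after the data were seen.

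The members and lists were chosen with earlier results of these data known. Seeds of the members were not compared, so the place of miR-449d in the family rests on its name. Named were all 7 members, the 5 miRNAs most like miR-34c and the leading miRNA of each list, with other list members named after their values were seen. Gene entries come from RefSeq (ARS-UCD2.0). Its coordinates gave only the chromosome, the order of entries and the genes that span them. No coordinate is printed, because the build differs from ARS-UCD1.2. The mRNA data of the study were not used here.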

Additional observations from a re-analysis of the deposited data

How the results depend on the processing

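No member was called in any of the 19 alternatives. The adjusted p of miR-34c ranged from 0.62 to 0.97, and its log2 fold change kept its sign in 17 of 19, from -0.86 to 0.14. It turned to 0.14 without replicate B at 37 °C and to 0.10 without replicate B at 42 °C, and with 1 library left out it ran from -0.53 to 0.14. miR-34a, miR-34b and miR-449d were tested in 17 alternatives each, and since the minimum mean and their few reads fix their signs, these say nothing on stability. They were not tested at a minimum mean of 50 CPM, and each fell under the 10 CPM minimum without 1 library, miR-34a without replicate B and miR-34b without replicate C at 37 °C, and miR-449d without replicate C at 42 °C. The estimate for miR-34b ran from -1.96 in edgeR with recomputed TMM to -0.23 with a pseudocount of 50, and 6 reads stand behind it.

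The count of all miRNAs called, 6, depended on the setting. It was 10 with a minimum mean of 50 CPM, 20 on plain CPM (no TMM factor), 14 on that scale with miR-1246 left out of the sums, 10 without the intensity trend, and 11 with library weights. edgeR called 13 and DESeq2 18 with the deposited scaling, and 11 and 18 with their own scaling factors. As deposited 4 of the 6 were higher at 42 °C, against 4 of 20 and 4 of 14 on those scales. With 1 library left out the count ran from 1 (without replicate B at 37 °C) to 9, and it was 3 without replicate C at 37 °C. With the replicate block it was 15. Same-lettered libraries did not deviate together (correlations from -0.06 to 0.03, and no library at 37 °C correlated best with its own letter), and the letters were not taken as pairs. With 3 libraries in each group these correlations cannot exclude pairing. The ratio of the summed members, 0.85, ran from 0.54 on plain CPM to 1.21 without replicate B at 37 °C, within the spread of the libraries. The group share of miR-34c among the members' reads, as a mean of libraries or pooled, stayed between 80.6 and 92.7%. With 6 to 47 reads per library, the depth in miRNA reads limits even the leading member, and the other 6 cannot be compared between temperatures.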

Other observations

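miR-34a, miR-34b and miR-34c also belong to a list of 14 miRNAs linked to p53 and senescence, of which 13 names were in the table. With both arms of miR-22 counted, 13 entries were tested between temperatures and none passed the test (median log2 fold change 0.13, against -0.01 for all 251 tested, with 5 of 13 below 0, among them miR-34a and miR-34b, which passed the minimum through N-EVs alone). miR-192 of this list stood at 4475 ± 6234 CPM in N-EVs and 2185 ± 576 CPM in S-EVs (SD, n = 3). Its 686 reads in replicate A at 37 °C stand beside 103 and 156 in replicates B and C, and that library had 6 reads of miR-34c and none of miR-34a. miR-143, the most abundant of the list over all 6 libraries though below miR-192 in N-EVs, had means of 3086 ± 2237 CPM in N-EVs and 6628 ± 4280 CPM in S-EVs (SD, n = 3), with an adjusted p of 0.32 in limma. The largest estimate of the list was that of miR-16a, at 61.9 ± 24.8 CPM in N-EVs and 407 ± 220.2 CPM in S-EVs (SD, n = 3), a log2 fold change of 2.48 (adjusted p = 0.051, limma) that did not pass. The 2 arms of miR-22 had log2 fold changes of opposite sign, 1.83 for miR-22-3p (adjusted p = 0.051, limma) and -1.70 for miR-22-5p (adjusted p = 0.22, limma), and neither passed that test. The study's own negative binomial test called miR-16a and miR-22-3p higher in S-EVs, so for these 2 the outcome depended on the test.

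Lists of miRNAs typical of other cells were summed in the same libraries, and their part in the family's values was not tested. Leukocyte miRNAs (4 names, led by miR-150) summed to 1167 to 1557 CPM in N-EVs and 4006 to 11516 CPM in S-EVs. Of 4 tested, limma called 1, miR-150, higher, against 1.59% of all 251. miR-223 of that list had a log2 fold change of 3.11 (adjusted p = 0.051, limma), from 3 reads in N-EVs and 49 in S-EVs. Stroma and muscle miRNAs (7 names, led by miR-143) summed to 4271 to 8572 and 6112 to 18351 CPM, and the endothelial miR-126 arms to 2884 to 4541 and 1256 to 8000 CPM, with no limma call in either list. Each of these sums exceeded that of the 7 members, 102 to 323 and 99.6 to 258 CPM, in every library. The study's own test also called miR-223 and, of the stroma and muscle list, miR-206 higher in S-EVs.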
